A study of Mus musculus with 7 samples.

Results

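The genes described here are the splicing factor genes of the hnRNP and SR families, taken as every protein-coding gene of the mm10 annotation (GENCODE M21) whose symbol starts with *Hnrnp* or *Srsf*. The rule gave 31 genes, 20 hnRNP genes and 11 SR genes, of 21938 protein-coding genes on the reference chromosomes. They were examined in 6 lists of ChIP-seq peaks from the gastrocnemius, a hindlimb muscle, of wild-type male C57BL/6J mice aged 5 months and kept on standard chow under 12 hours of light and 12 hours of darkness. RNA polymerase II (RNAP2) and BMAL1, the activator of the circadian clock, were mapped at Zeitgeber time (ZT) 4, that is 4 hours after lights on, and REV-ERBα, a clock repressor, at ZT 8, with 2 biological replicates each. No genotype, diet or treatment varied, and each antibody was used at a single time, so antibody and time cannot be told apart. Input DNA of the same muscle at ZT 4 served the authors as the background for peak calling and was not used here as a list of its own.

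hnRNP proteins coat nascent pre-mRNA and often keep splice sites from being used, whereas SR proteins carry RNA recognition motifs and a tail rich in arginine and serine and mostly favour exon inclusion. SR proteins are phosphorylated by SRPK kinases in the cytoplasm and CLK kinases in the nucleus, and transportins carry them into the nucleus. Many genes of both families limit their own protein through alternatively spliced exons that expose the mRNA to decay, and in striated muscle alternative splicing sets the isoforms of many contractile proteins.

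The strength of a peak is given as the −log10 p that the authors' Macs2 run assigned to it and as the fold enrichment over the local background at its summit. A region is a stretch where peaks of both replicates overlapped by at least 1 bp, and its strength is the lower −log10 p of the 2 replicates. A gene was assigned every peak within 10 kb of any of its annotated transcription start sites (TSSs). The comparison genes are the 8341 other protein-coding genes with an RNAP2 region in both replicates by that rule. The lists differ in length, with 87870 and 168821 peaks in RNAP2 replicates 1 and 2, 28881 and 29934 for REV-ERBα, and 34737 and 177669 for BMAL1, and the reads behind a single peak are unknown. All 10 markers of skeletal muscle fibers had an RNAP2 region, against 0 of 4 markers each of liver and endothelium, 0 of 3 of neurons and 0 of 2 of smooth muscle, while 3 of 4 markers of fibroblasts, 2 of 4 of immune cells and 1 of 2 of satellite cells had one. Gastrocnemius is a mixed tissue, so more cells of a type and more polymerase per cell cannot be told apart. With 2 samples per antibody no exact test over samples can reach a two-sided p below 0.333, so genes are described by counts and medians beside the same over the comparison genes.

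RNAP2 occupied the promoters of nearly all splicing factor genes. Their strongest peaks within 10 kb had a higher median strength than those of the comparison genes. An RNAP2 region was present at 29 of the 31 genes (93.5%), against 38.1% of the other 21907 protein-coding genes. The count was also 29 when only regions within 1 kb of a TSS were taken, where 30.5% of the other genes had one. Both counts hold 19 of 20 hnRNP genes and 10 of 11 SR genes. Regions whose peaks reached a q-value of 0.05 in both lists (−log10 q of at least 1.3) were found at 25 genes (80.6%), against 48.8% of the comparison genes. The plot of strongest peaks by gene sets all 31 genes out in the 6 lists.

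**Figure D1:**
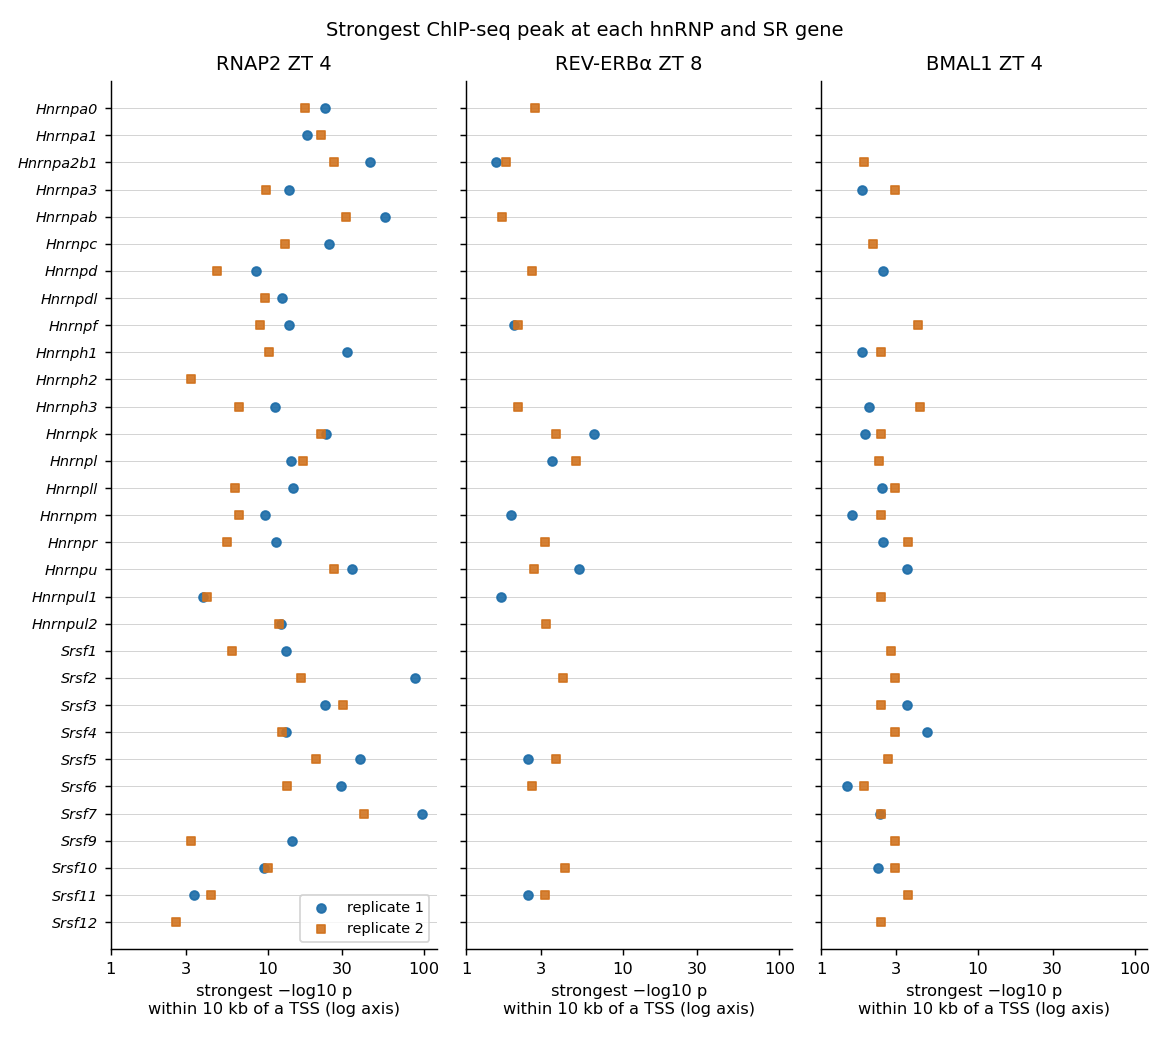
Strongest peak of each of the 31 hnRNP and SR genes within 10 kb of a TSS, as −log10 p on a log axis, for RNAP2 at ZT 4, REV-ERBα at ZT 8 and BMAL1 at ZT 4. Circles are replicate 1 and squares replicate 2, and a missing symbol means that the list holds no peak there. RNAP2 values reach 96.6, whereas no REV-ERBα value exceeds 6.58 and no BMAL1 value exceeds 4.74.

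The strongest RNAP2 peak of a splicing factor gene had a median −log10 p of 14.4 (replicate 1) and 10.2 (replicate 2). The comparison genes had medians of 8.58 and 5.07. On the scale of fold enrichment the medians were 7.50 and 5.73 for the splicing factor genes and 5.19 and 3.58 for the comparison genes. The lower −log10 p of the region had a median of 11.9 over the 29 genes with a region and of 10.2 over all 31 with absent regions set to 0, against 4.73 for the comparison genes, each of which has a region by definition. All these values count peaks anywhere within 10 kb. The strongest summit lay within 1 kb of a TSS in both replicates at 60.8% of the comparison genes. For the splicing factor genes this share was 93.5%, and strength at promoters alone was not compared. The order of the genes was similar in the replicates, with a Spearman rho of 0.78 over the 29 genes with a region and 0.66 over 8336 comparison genes, a description across genes of the same 2 libraries. Replicate 1 gave the higher value for 23 of 31 genes (74.2%) and for 82.7% of the comparison genes, so the libraries differ in scale.

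Both families were strong. The median of SR genes was 18.9 and that of hnRNP genes 14.2 in replicate 1, but the values within the families overlapped over nearly their whole range, from 3.38 to 96.6 for SR genes and from 3.87 to 56.3 for hnRNP genes in replicate 1. The strongest RNAP2 peak of 10 genes (32.3%) lay in the highest 10% of comparison genes in both replicates, a place that 5.87% of the comparison genes held. These were *Hnrnpa0*, *Hnrnpa2b1*, *Hnrnpab*, *Hnrnpk*, *Hnrnpu*, *Srsf2*, *Srsf3*, *Srsf5*, *Srsf6* and *Srsf7*. The fold enrichment placed the same 10 genes in its highest 10%, against 5.61% of the comparison genes.

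**Figure D2:**
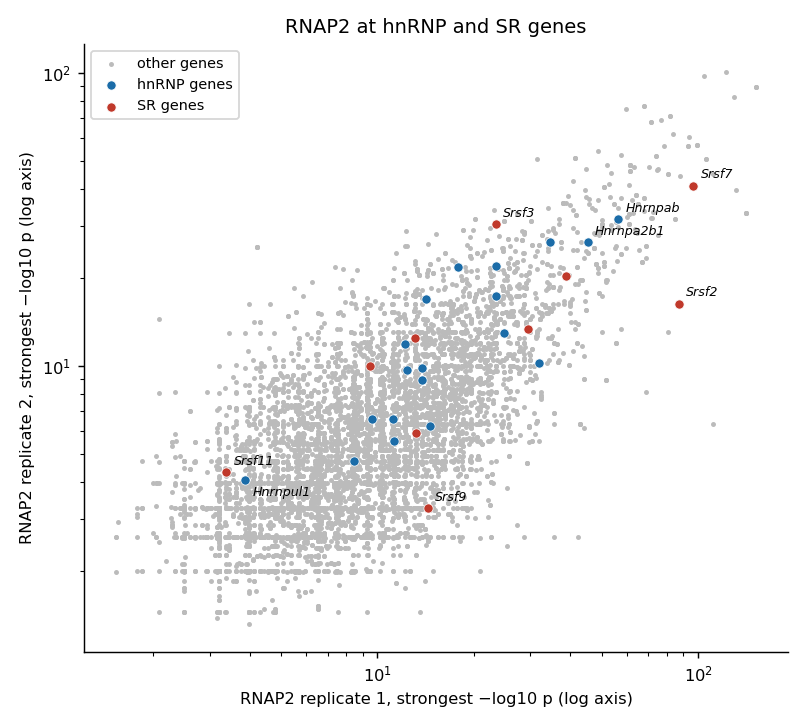
Strongest RNAP2 −log10 p within 10 kb of a TSS in replicate 1 (horizontal) against replicate 2 (vertical), both on log axes. Grey points are 8336 comparison genes, blue points hnRNP genes and red points SR genes. *Srsf7* and *Hnrnpab* lie high in both replicates, *Srsf2* and *Srsf9* are far stronger in replicate 1, and *Srsf11* and *Hnrnpul1* lie low in both.

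*Srsf7*, whose SR protein also takes part in mRNA export, carried the strongest RNAP2 peak of the families. Its −log10 p reached 96.6 and 41.2 in replicates 1 and 2, with fold enrichments of 27.7 and 13.5. The region chr17:80206998-80207573 covers the start of the gene, and both summits lay in an exon, 24 and 32 bp from a TSS. The divergent gene *Ttc39d* starts 153 bp away within the same region, so the polymerase cannot be assigned to *Srsf7* alone. Among the comparison genes these values stood at percentiles 99.8 and 99.4.

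*Hnrnpab*, whose product binds single-stranded DNA and RNA, followed with 56.3 and 31.6 in a region at chr11:51605988-51607326. *Hnrnpa2b1*, an abundant hnRNP of the core particle, had 45.3 and 26.5, values that the divergent gene *Cbx3*, which starts 466 bp away, shares. *Hnrnpu*, the scaffold attachment factor that also binds chromatin-associated RNA, had 34.5 and 26.5. *Srsf3*, the smallest SR protein, had 23.4 and 30.5, with the higher value in replicate 2. In these 5 genes every replicate exceeded 20, which also held for *Hnrnpk* (23.5 and 21.9) and *Srsf5* (38.8 and 20.3).

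The promoters of the 4 strongest genes by the lower −log10 p are shown because the RNAP2 regions above lie on them. They are RefSeq promoter sequences of build GRCm38.p6, which is mm10, trimmed to the stretch outside annotated exons and written in the direction of transcription. Capitals mark CCAAT, bound by NF-Y, and GGGCGG, the GC box bound by Sp1, on either strand, with overlapping matches both marked.
Srsf7, chr17:80207308-80207459, minus strand: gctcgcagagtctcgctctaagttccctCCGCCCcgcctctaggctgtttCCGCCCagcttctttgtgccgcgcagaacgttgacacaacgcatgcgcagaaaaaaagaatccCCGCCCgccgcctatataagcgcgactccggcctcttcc
Hnrnpab, chr11:51606848-51607131, minus strand: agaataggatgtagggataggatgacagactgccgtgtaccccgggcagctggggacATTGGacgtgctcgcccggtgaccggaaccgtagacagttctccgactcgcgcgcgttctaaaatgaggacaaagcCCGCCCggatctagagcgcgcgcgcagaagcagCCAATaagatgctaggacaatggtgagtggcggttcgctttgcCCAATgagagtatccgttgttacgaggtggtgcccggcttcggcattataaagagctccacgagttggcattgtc
Hnrnpa2b1, chr6:51469895-51470144, minus strand: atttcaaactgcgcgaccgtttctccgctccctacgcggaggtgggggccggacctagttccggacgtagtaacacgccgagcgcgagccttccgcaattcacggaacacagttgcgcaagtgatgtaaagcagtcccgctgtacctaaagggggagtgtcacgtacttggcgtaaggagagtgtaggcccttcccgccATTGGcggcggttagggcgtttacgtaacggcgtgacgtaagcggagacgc
Hnrnpu, chr1:178337798-178338065, minus strand: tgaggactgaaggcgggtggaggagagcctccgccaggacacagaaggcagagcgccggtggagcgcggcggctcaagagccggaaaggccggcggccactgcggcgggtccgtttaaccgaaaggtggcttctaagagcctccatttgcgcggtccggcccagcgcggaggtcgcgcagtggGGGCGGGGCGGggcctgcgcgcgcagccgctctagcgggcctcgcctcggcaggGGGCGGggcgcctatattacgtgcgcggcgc
*Srsf7* and *Hnrnpu* hold 3 GC boxes each and no CCAAT, *Hnrnpab* holds 3 CCAAT and 1 GC box, and *Hnrnpa2b1* holds 1 CCAAT and no GC box in these stretches.

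Over all 31 genes, in the window from 250 bases before to 50 after the annotated 5′ end, CCAAT occurred in 17 (54.8%) and GGGCGG in 22 (71.0%). The same windows of 8339 comparison genes held them in 38.3% and 59.6%, and those of 21900 other protein-coding genes in 39.0% and 43.0%. CCAAT was found in 13 of 20 hnRNP genes and 4 of 11 SR genes. At *Hnrnpf*, *Hnrnpk* and *Hnrnpm* the RNAP2 regions lay at other TSSs and did not reach this window. The windows of these genes, which held neither CCAAT nor GGGCGG, are therefore not the promoters that RNAP2 occupied. The E-box CACGTG, the letters that BMAL1 recognises with CLOCK, occurred in 4 genes (12.9%), namely *Hnrnpa3*, *Hnrnpd*, *Hnrnph2* and *Hnrnph3*, against 10.4% of the comparison genes. AGGTCA, the core of REV-ERBα response elements, also occurred in 4 (12.9%), *Hnrnph1*, *Hnrnpl*, *Srsf3* and *Srsf9*, against 12.8%. The windows were CpG-rich, with a median ratio of observed to expected CpG of 0.912 against 0.748, while GC content was 62.3% against 60.0%.

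*Srsf2* showed the widest disagreement between replicates among the strong genes. It encodes the nuclear speckle protein SC35, and its −log10 p was 87.1 and 16.3, with fold enrichments of 24.2 and 6.67. Both summits lay in an *Srsf2* exon that is also within introns of *Mfsd11* and *Mettl23*, so the region chr11:116852772-116854171 cannot be assigned to a single gene. *Srsf9*, a small SR protein gene, was similar at a lower level, with 14.4 in replicate 1 and 3.26 in replicate 2. *Srsf5* had 38.8 and 20.3 at a promoter without a divergent coding neighbour.

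The lowest values with a region belonged to *Srsf11*, *Srsf9*, *Hnrnpul1*, *Hnrnpd* and *Hnrnpr*. *Srsf11*, an SR family member, reached 3.38 and 4.34 with its strongest peaks, but these did not overlap each other, and its best region had a lower −log10 p of 2.60 and lay 3222 bp from a TSS. A region at the *Srsf11* promoter, which is shared with *Lrrc40* 23 bp away, had 3.38 and 1.71. *Hnrnpul1*, linked to the response to DNA damage, had 3.87 and 4.09 in a region of 417 bp with both summits in an exon. *Hnrnpd*, known as AUF1 and as a regulator of AU-rich mRNA decay, had 8.46 and 4.73. *Hnrnpr*, a relative of SYNCRIP, had 11.3 and 5.52. The second-replicate values of these genes lay near the comparison median of 5.07 or below it.

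*Hnrnph2* and *Srsf12* had no RNAP2 region in both replicates. *Hnrnph2*, the X-linked copy of *Hnrnph1*, had no peak in replicate 1 and a peak of 3.26 in replicate 2, 28 bp from a TSS. Its autosomal relative *Hnrnph1* had 32.0 and 10.2. Chromosome X held only 0.410% and 0.371% of the RNAP2 peaks, and the part of this in the value at *Hnrnph2* was not tested. *Srsf12* had no peak in replicate 1 and 2.60 in replicate 2, 455 bp from a TSS. With the distance raised to 20 kb all 31 genes and 45.2% of the other protein-coding genes had a region in both replicates.

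RNAP2 on these genes was concentrated at the start. The strongest summit lay a median of 25 bp from a TSS in replicate 1 and 28 bp in replicate 2, against 124 and 166 bp for the comparison genes. It lay within 1 kb of a TSS in both replicates for 29 genes, against 60.8% of the comparison genes, and was nearest to the gene's own TSS for 27, against 66.4%. The splicing factor genes have a median of 7 annotated TSSs against 5, which by itself shortens distances to a TSS. The total span of their 10 kb windows was not larger, with a median of 26711 bp against 27817 bp. Of the other protein-coding genes, 8341 had an RNAP2 region within 10 kb and 6672 within 1 kb. Part of the comparison genes thus have no region near a TSS, which by itself lengthens their distances.

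**Figure D3:**
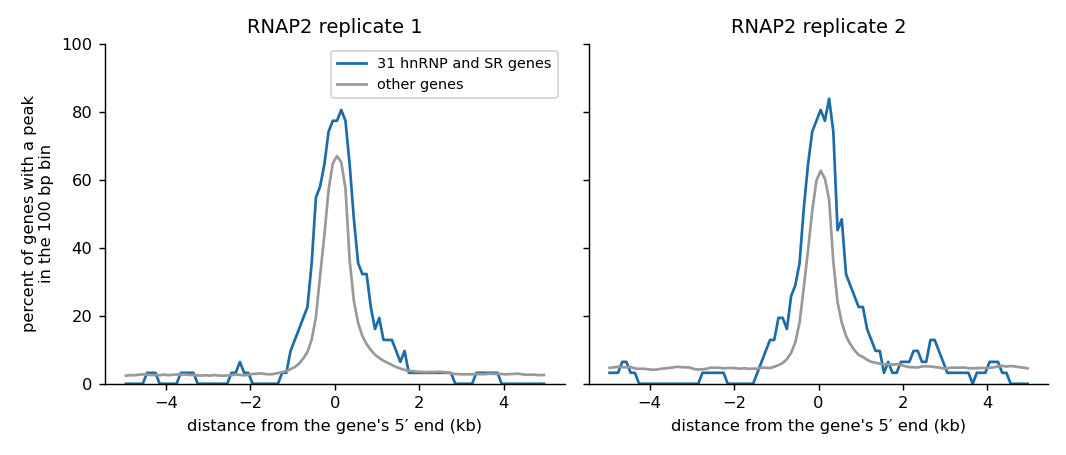
Percent of genes with an RNAP2 peak in each 100 bp bin from 5 kb before to 5 kb after the annotated 5′ end, in replicate 1 (left) and replicate 2 (right), for the 31 hnRNP and SR genes (blue) and the 8341 comparison genes (grey). The splicing factor genes reach 80.6% and 83.9% and the comparison genes 67.0% and 62.7%.

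The strongest region was a median of 992 bp wide, against 662 bp. These regions were also stronger, with a median lower −log10 p of 11.9 against 4.73, and the part of strength in their width was not tested. Regions were wider at hnRNP genes (median 1170 bp) than at SR genes (median 807 bp), the widest being 1952 bp at *Hnrnpu*. From 500 to 600 bp after the 5′ end, 35.5% of the splicing factor genes had a peak in replicate 1 and 48.4% in replicate 2, against 17.9% and 18.0%. RNAP2 peaks covered a median of 5.46% and 5.84% of the gene body, against 1.93% and 3.82%. The genes themselves are shorter, with a median length of 10746 bp against 21651 bp, so the covered share is not a measure of polymerase in the body alone. *Hnrnpf*, a binder of G-tracts, and *Hnrnpl*, a binder of CA repeats, were the only members with 2 regions over the gene body, the second *Hnrnpf* region reaching 6.54 and 6.69 at an internal TSS. A divergent coding gene started within 1 kb of 11 members (35.5%) and of 19.3% of the comparison genes, and at *Hnrnpdl* and *Srsf11* the strongest replicate 1 summit was nearer to the neighbour, *Enoph1* and *Lrrc40*.

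Clock factor regions were about as common at the splicing factor genes as at the comparison genes. A REV-ERBα region in both replicates was present at *Hnrnpk*, *Hnrnpl* and *Hnrnpu*, 3 of 31 genes (9.68%), against 7.72% of the comparison genes. A BMAL1 region in both replicates was present at *Hnrnpr* and *Srsf7*, 2 genes (6.45%), against 6.51%. Sites shared by 3 or 4 of the clock factor lists were present at 0 genes, against 2.61%. The lists do hold such sites at clock genes, of which 12 of 18 had one, and 13 of the 18 had a BMAL1 region and 10 a REV-ERBα region. At *Per1*, a repressor of the clock and a target of BMAL1, the BMAL1 peaks had 36.5 and 21.2. None of the clock factor regions at the splicing factor genes had a q-value of 0.05 or less in both replicates. Only the region at *Hnrnpk* had it in replicate 1, and the others had it in neither replicate. In the whole lists, 92 of 34737 and 36 of 177669 BMAL1 peaks reached it. For REV-ERBα these were 324 of 28881 and 423 of 29934 peaks.

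**Figure D4:**
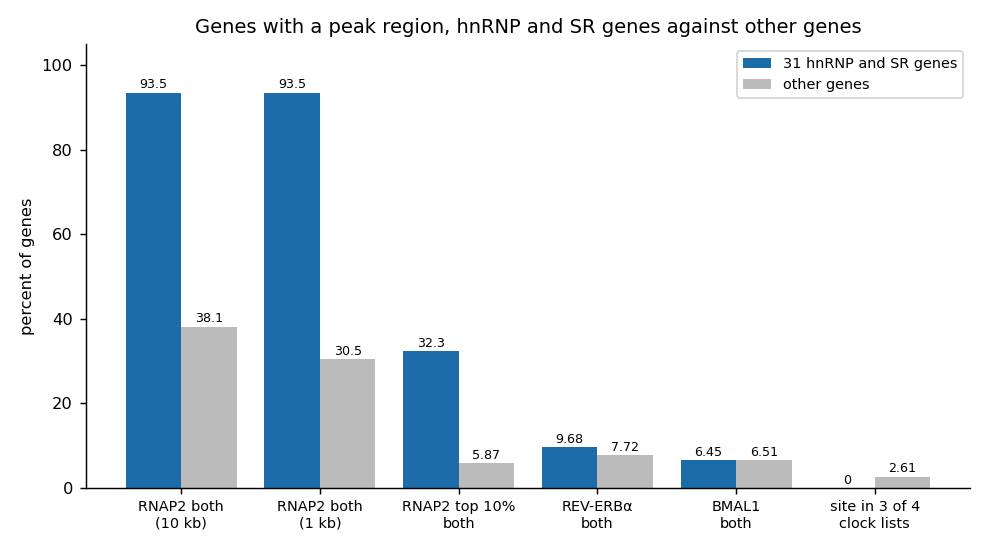
Percent of genes with an RNAP2 region in both replicates within 10 kb or 1 kb of a TSS, in the highest 10% of RNAP2 −log10 p in both replicates, and with a REV-ERBα region, a BMAL1 region or a site in 3 of the 4 clock factor lists. Blue bars are the 31 hnRNP and SR genes. Grey bars are the 21907 other protein-coding genes for the first 2 pairs and the 8341 comparison genes for the rest. The pairs differ most for RNAP2, whereas REV-ERBα (9.68% and 7.72%) and BMAL1 (6.45% and 6.51%) are close.

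The sequences at the summits are shown because they come from the only clock factor regions found at these genes in both replicates. Each reaches 100 bp to either side of the summit of the stronger replicate, on the plus strand of GRCm38. The peak of the other replicate starts at 136313701 at *Hnrnpr* and ends at 80209009 at *Srsf7*. It covers only part of those windows, so the stretch shared by the replicates was not searched as such. AGGTCA and CACGTG were searched on both strands and would stand in capitals. The window at *Hnrnpk* lies wholly in annotated exons and is not printed, and it holds neither.
Hnrnpl, REV-ERBα, chr7:28808905-28809105: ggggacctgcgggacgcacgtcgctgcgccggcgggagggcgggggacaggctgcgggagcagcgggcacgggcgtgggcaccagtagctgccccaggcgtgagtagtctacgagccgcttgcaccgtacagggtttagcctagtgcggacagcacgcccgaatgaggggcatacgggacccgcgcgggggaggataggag
Hnrnpu, REV-ERBα, chr1:178318867-178319067: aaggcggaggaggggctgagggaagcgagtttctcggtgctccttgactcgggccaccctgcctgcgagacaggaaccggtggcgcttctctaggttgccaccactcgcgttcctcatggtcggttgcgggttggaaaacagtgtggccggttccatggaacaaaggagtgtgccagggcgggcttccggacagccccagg
Hnrnpr, BMAL1, chr4:136313590-136313790: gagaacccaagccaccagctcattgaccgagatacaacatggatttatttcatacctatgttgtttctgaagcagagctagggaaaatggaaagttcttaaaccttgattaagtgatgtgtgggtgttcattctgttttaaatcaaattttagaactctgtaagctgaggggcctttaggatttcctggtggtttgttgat
Srsf7, BMAL1, chr17:80208947-80209147: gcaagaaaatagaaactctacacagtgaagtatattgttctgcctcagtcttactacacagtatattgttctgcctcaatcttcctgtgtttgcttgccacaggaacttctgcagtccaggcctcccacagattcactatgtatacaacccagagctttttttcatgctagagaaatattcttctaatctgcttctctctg
Neither set of letters occurs in these 4 windows, which says only that these letters are absent there. AGGTCA occurred in 13.1% of the windows at all 1263 REV-ERBα regions and in 9.58% at the 10752 RNAP2 regions, and CACGTG in 2.55% of those at the 2742 BMAL1 regions and 4.70% at the RNAP2 regions. The authors' motif search reported E-boxes and the REV-ERB response element enriched in the peaks of both clock factors. That is a different measure from these exact letters near a summit. The REV-ERBα windows are GC-rich (71.6% at *Hnrnpl* and 63.7% at *Hnrnpu*), and the BMAL1 windows are not (39.3% at *Hnrnpr* and 40.8% at *Srsf7*).

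*Hnrnpk*, a KH-domain protein that binds poly(C), had the strongest of these regions. Its REV-ERBα peaks had a −log10 p of 6.58 and 3.75 and fold enrichments of 3.59 and 2.78, and only the first reached the q threshold, with a −log10 q of 2.14 against 0. The region chr13:58401812-58403300 spans the start of *Hnrnpk* and of the divergent gene *Rmi1*, 51 bp away, so either could be its gene. RNAP2 peaks of 23.5 and 21.9 lay over it. By strength it stood at place 332 of the 1263 REV-ERBα regions.

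At *Hnrnpl* the REV-ERBα peaks had 3.54 and 5.07 in the first part of the gene, in an intron 241 and 197 bp from a TSS (chr7:28808777-28809478). RNAP2 peaks of 7.55 and 16.9 overlapped it. At *Hnrnpu* the region chr1:178318229-178319709 had 3.24 and 2.72, came within 4462 bp of an *Hnrnpu* TSS and was nearer to the start of *Cox20*, an assembly factor of cytochrome oxidase. It was lost when only TSSs of protein-coding transcripts were counted. RNAP2 peaks of 23.0 and 12.0 lay over it too, apart from the stronger RNAP2 region at the *Hnrnpu* promoter. A stronger REV-ERBα peak of 5.29, close to an *Hnrnpu* TSS, was present in replicate 1 alone.

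The BMAL1 regions lay away from RNAP2 regions. At *Hnrnpr* the peaks had 2.01 and 3.60, inside the gene and no nearer than 1805 bp to a TSS (chr4:136313490-136314261). At *Srsf7* they had 2.37 and 1.87 in an intron of *Ttc39d* (chr17:80208734-80209577), no nearer than 1427 bp to an *Srsf7* TSS. No RNAP2 peak of either replicate overlapped these 2 regions, and no peak of the other clock factor overlapped any of the 5 regions.

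REV-ERBα regions were more frequent where RNAP2 was strong. Of the comparison genes in the highest 10% of RNAP2 in both replicates, 26.3% had a REV-ERBα region, against 7.72% of all comparison genes. Of the 10 splicing factor genes in that class 2 had one, *Hnrnpk* and *Hnrnpu*. The summits of the *Hnrnpu* region lay 163 and 610 bp from a *Cox20* TSS in replicates 1 and 2, outside the *Hnrnpu* gene body. *Hnrnpu* is in the class through the RNAP2 region at its own promoter, which lies apart from that REV-ERBα region. *Srsf7*, with the strongest RNAP2 of all members, had no REV-ERBα peak within 10 kb in either list. The share of REV-ERBα regions at the splicing factor genes was near the background before RNAP2 was taken into account and was 2 of 10 against 26.3% after it.

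Peaks of single lists were more common than regions. REV-ERBα replicate 1 had a peak at 9 genes (29.0%) and replicate 2 at 16 (51.6%), against 39.9% and 42.5% of the comparison genes. BMAL1 replicate 1 had a peak at 14 genes (45.2%) and replicate 2 at 23 (74.2%), against 38.6% and 90.4%. The median strongest −log10 p of genes with a peak was 2.50 and 2.98 for REV-ERBα and 2.34 and 2.69 for BMAL1, and the comparison genes had 2.50, 2.64, 2.48 and 2.69. All 11 SR genes had a peak in BMAL1 replicate 2, the longest list, but only 12 of 20 hnRNP genes did. The highest BMAL1 value at any member was 4.74 at *Srsf4* in replicate 1, where replicate 2 had 2.98 elsewhere in the window.

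Other genes of the splicing machinery were examined as lists chosen by function. Beside them, 38.1% of the 21907 protein-coding genes outside the 2 families had an RNAP2 region. The median lower −log10 p of the comparison genes was 4.73. SR-related proteins had an RNAP2 region at 10 of 10 genes, with a median lower −log10 p of 9.53, and among them *Tra2b*, an SR-like splicing activator, had 28.6 and 28.1 and *Son*, a nuclear speckle protein, 32.7 and 27.9. The kinases of SR proteins had one at 5 of 7 genes, with a median of 5.42, and *Srpk1* and *Srpk2* had none. Transportins had one at 3 of 3, with a median of 8.16. The core spliceosome had one at 27 of 35 genes (77.1%), with a median of 4.91, and the regulators of splicing in muscle at 7 of 12 (58.3%), with a median of 4.93. For reference, 75 of 78 cytosolic ribosomal protein genes (96.2%) had one, with a median of 8.12, and 22 of 39 proteasome genes (56.4%), with a median of 5.86.

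Relatives that do not carry the family symbols were examined in the same way. Of 15 other hnRNP-type RNA-binding proteins, 15 had an RNAP2 region, with a median lower −log10 p of 7.22, and 5 (33.3%) had a REV-ERBα region in both replicates, against 7.72% of the comparison genes and 3 of 31 *Hnrnp* and *Srsf* genes. The list was drawn up with earlier results of these data known and without a gene that is not reported here, and the difference in share was not tested. *Raly*, a close relative of *Hnrnpc*, had a REV-ERBα −log10 p of 66.8 and 59.8, place 4 of all 1263 REV-ERBα regions. *Tardbp*, the gene of TDP-43, had 46.9 and 30.9 at place 33. *Ewsr1* had 25.6 and 17.2, and its relative *Taf15* had 14.5 and 20.2. *Pcbp1*, a poly(C) binder like *Hnrnpk*, had 4.40 and 3.84.

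**Figure D5:**
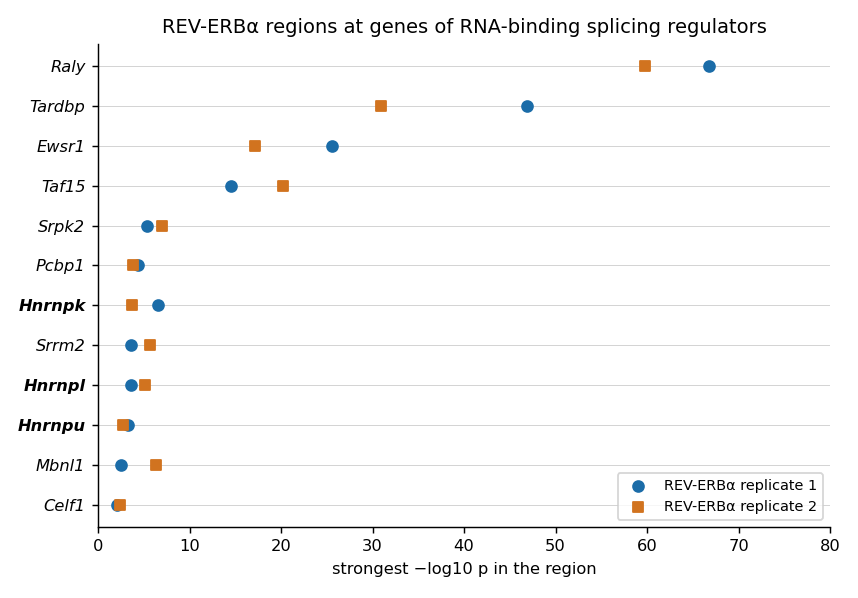
REV-ERBα −log10 p in replicate 1 (circles) and replicate 2 (squares) for each region present in both replicates at hnRNP and SR genes (bold), other hnRNP-type proteins, SR-related proteins, SR protein kinases and regulators of splicing in muscle, ordered by the lower value. *Raly* lies at 66.8 and 59.8, whereas *Hnrnpk*, *Hnrnpl* and *Hnrnpu* lie between 2.72 and 6.58.

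All of these 5 regions had both summits within 1 kb of a TSS of the named gene, which was also the nearest coding gene, and the summit at *Ewsr1* lay in an exon shared with *Rhbdd3*. RNAP2 peaks overlapped the region at *Raly* with 34.3 and 15.8, but RNAP2 at *Tardbp* was weaker, with 9.30 in replicate 1 and no overlapping peak in replicate 2. No BMAL1 peak overlapped the regions at *Raly*, *Tardbp*, *Ewsr1* and *Taf15*, and a BMAL1 replicate 1 peak of 3.03 overlapped that at *Pcbp1*. The sequence at *Taf15*, outside annotated exons and on the plus strand, is set out for comparison with those at *Hnrnpl* and *Hnrnpu*.
Taf15, REV-ERBα, chr11:83472819-83473019: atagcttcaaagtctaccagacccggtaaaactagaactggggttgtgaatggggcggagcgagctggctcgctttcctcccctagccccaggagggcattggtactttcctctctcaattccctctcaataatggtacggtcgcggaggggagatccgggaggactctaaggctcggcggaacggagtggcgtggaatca
This window holds no AGGTCA and no CACGTG, and neither do the windows at *Raly*, *Tardbp* and *Ewsr1*. Of the 207 REV-ERBα regions with a q-value of 0.05 or less in both replicates, 10.6% held AGGTCA within 100 bp of the summit.

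In the remaining lists REV-ERBα regions were present at 2 of 12 regulators of splicing in muscle (16.7%), 1 of 7 kinases of SR proteins (14.3%), 1 of 10 SR-related proteins and 2 of 35 core spliceosome genes (5.71%), beside 7.72% of the comparison genes. BMAL1 regions were present at 2, 1, 0 and 1 genes of these lists, beside 6.51%. *Srpk2*, a kinase of SR proteins, had REV-ERBα peaks of 5.39 and 7.01 at its promoter and *Srpk1* a BMAL1 region of 2.01 and 1.36. *Srrm2*, a scaffold of nuclear speckles, had REV-ERBα peaks of 3.57 and 5.65. Among regulators of splicing in muscle, *Mbnl1* had REV-ERBα peaks of 2.50 and 6.34 and *Celf1* of 2.02 and 2.41, and *Rbfox1* and *Rbfox2* each had BMAL1 peaks of 2.48 and 1.87. In the core spliceosome REV-ERBα regions lay within 10 kb of *Sf1*, nearer to *Pygm*, with 3.32 and 1.69, and of *Sf3a3*, with 2.24 and 2.65, and a BMAL1 region lay at *Prpf3*, with 1.33 and 1.40. Transportins had 0 of either factor, the ribosomal protein genes REV-ERBα regions at 3 and BMAL1 regions at 3 of 78 genes, and the proteasome genes at 1 and 4 of 39.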

How the data were processed

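ChIP-seq peaks of RNAP2, REV-ERBα and BMAL1 were analysed in 2 replicates each, grouped by the samples' labels. The authors aligned reads to mm10 with BWA 7.12 and dropped duplicates and reads with several matches. Depth was equalised between replicates by down-sampling, and each library was then compared with input in Macs2 2.1.1, keeping peaks with a p-value up to 0.05. The deposited fold enrichment is the ratio of signal to local background at the summit, from the authors' Macs2 run. The deposited −log10 p and −log10 q (q-value) come from the same run. The deposited score, a whole-number rescaling, was not used. No reads were analysed here, so depth at a peak is unknown and no counting interval is given.

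Genes and TSSs came from GENCODE M21, and sequences from GRCm38 and RefSeq promoters, where all 32851 promoters equalled the genome and 29 of the 31 genes had an entry, without *Hnrnpll* and *Hnrnpul2*. Peaks were merged and assigned with Python 3.11.15 and plotted with matplotlib 3.10.9, and the assignment, tested on peaks planted at 50 genes, recovered 50. No gene list was tested. Genes named with values had no RNAP2 region, had a clock factor region, or were among the 5 highest or 5 lowest by RNAP2 or those with most regions over the gene body, and other genes of the splicing lists had a clock factor region. The rest were chosen after their values were seen, and the ribosomal, proteasome and clock lists are given by counts. Members and lists were chosen with earlier results of these data known. Alternatives were distance, thresholds, list size, overlap, summit position, TSS type and leaving out each replicate.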

Additional observations from a re-analysis of the deposited data

How the results depend on the processing

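Of 60 values recomputed under the alternatives, 49 stayed within the set limits (1.5 times for counts, and the spread between replicates of 2.83 for the median) and 11 moved. Genes with an RNAP2 region numbered 25 to 31 under every alternative tried, beside 18.6% to 83.9% of the other protein-coding genes, the highest share without RNAP2 replicate 1, where all 31 had a peak. Sites in 3 of 4 clock factor lists numbered 0 under every alternative. REV-ERBα regions numbered 5 at 20 kb (9.51% of the comparison genes) and 0 with −log10 q of at least 1.3 (4.39%), and 9 to 16 when a replicate was left out (9 without REV-ERBα replicate 2, beside 39.9%, and 16 without replicate 1, beside 42.5%). BMAL1 regions numbered 0 with −log10 p of at least 3 (0.814%), 0 with −log10 q of at least 1.3 (0.491%), 1 with lists of equal size (1.68%) and 0 with an overlap of 50% (4.47%), and 14 to 23 when a replicate was left out (14 without BMAL1 replicate 2, beside 38.6%, and 23 without replicate 1, beside 90.4%). The median lower RNAP2 −log10 p was 10.2 to 14.2 when a replicate was left out, the higher value without RNAP2 replicate 2. Leaving out a replicate removes the need for a second peak, and stricter thresholds leave fewer peaks. The cause of the other moves was not tested. No paired analysis was possible because the results come from no test and the replicate numbers of different antibodies mark no shared animal in the labels. The depth behind each peak is unknown, so its effect on these counts was not tested.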
